A study of Homo sapiens with 12 samples.

Results

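The genes described here are 10 members of the epidermal growth factor family: the 7 ligand genes AREG, EREG, HBEGF, TGFA, BTC, EPGN and NRG1, and the 3 receptor genes EGFR, ERBB2 and ERBB3. They were chosen by name, as the rows of a table of 61541 genes whose Ensembl identifiers carry these symbols, and all 10 were found. They were followed in 12 RNA sequencing libraries of A549, an established human lung adenocarcinoma line (non-small cell lung cancer) grown in high-glucose DMEM with fetal bovine serum. All libraries were made 14 days after transduction with Cas9 guides, all are labelled as untreated, and they form 4 groups of 3. Lone control cells carried the non-targeting guide gNTC1 (genotype NTC KO), and co-cultured control cells carried the same guide. Lone knockout cells carried a guide against TYMS (TS-KO), which encodes the enzyme thymidylate synthase, a source of the thymidylate used to build DNA, and co-cultured knockout cells carried the same guide. The series text names parental A549 as the cells that co-cultured knockout cells grew with and says that their proliferation was restored there. The partner of the control cells, the way cells were separated, if they were, and the number of clones are not given in the sources used here. Nothing states that replicates were separate cultures, so the p-values measure the spread between these libraries, which may be technical. The co-cultured libraries may hold RNA of more than 1 kind of cell, and in such bulk RNA fewer cells of a type and less RNA per cell cannot be told apart.

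The ligands are made as membrane-bound precursors, and metalloproteases, chiefly ADAM17, release the soluble growth factor. AREG, EREG, HBEGF, TGFA, BTC and EPGN bind EGFR, some of them also ERBB4, whereas NRG1 binds ERBB3 and ERBB4. Bound receptors pair with each other, often with ERBB2, which has no known ligand of its own, and signal through RAS-MAPK and PI3K-AKT. ERBB3 has little kinase activity and relies on its partner. In lung epithelium the pathway drives growth and repair, and EGFR is a known driver of lung adenocarcinoma.

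Of the ligand genes, 4 lie together on chromosome 4. In GENCODE 29 on GRCh38 the order is EPGN, EREG, AREG and BTC, from position 74308473 to 74794686, a span of 486 kb. AREG (74445134 to 74455009) and EREG (74365143 to 74388751) are neighbours on the plus strand. HBEGF lies on chromosome 5 (140332843 to 140346631, minus strand), TGFA on chromosome 2 (70447280 to 70554193, minus strand), EGFR on chromosome 7 (55019021 to 55211628, plus strand), ERBB2 on chromosome 17 (39687914 to 39730426, plus strand) and ERBB3 on chromosome 12 (56076799 to 56103505, plus strand). The 250 bases before the transcription start, from RefSeq on GRCh38.p14, are given 5′ to 3′ for 4 of them. AREG is shown because it passed the test in most comparisons and EREG because it is its neighbour, HBEGF because it rose with AREG in co-cultured knockout cells, and EGFR because it was the receptor that rose in the knockout. They are at chr4:74444886-74445135 (plus strand) for AREG, chr4:74364895-74365144 (plus strand) for EREG, chr5:140346604-140346853 (minus strand) for HBEGF and chr7:55018767-55019016 (plus strand) for EGFR, of which the first of its RefSeq starts is used. Capitals mark matches to the motifs searched.
AREG: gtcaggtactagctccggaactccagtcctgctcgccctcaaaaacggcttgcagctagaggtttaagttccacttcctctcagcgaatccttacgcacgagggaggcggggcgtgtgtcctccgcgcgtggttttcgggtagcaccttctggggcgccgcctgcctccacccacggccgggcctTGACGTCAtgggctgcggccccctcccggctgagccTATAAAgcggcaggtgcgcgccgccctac
EREG: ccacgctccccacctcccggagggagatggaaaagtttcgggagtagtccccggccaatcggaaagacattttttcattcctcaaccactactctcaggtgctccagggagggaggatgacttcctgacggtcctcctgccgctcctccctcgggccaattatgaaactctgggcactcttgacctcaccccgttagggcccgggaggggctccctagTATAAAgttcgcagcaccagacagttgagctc
HBEGF: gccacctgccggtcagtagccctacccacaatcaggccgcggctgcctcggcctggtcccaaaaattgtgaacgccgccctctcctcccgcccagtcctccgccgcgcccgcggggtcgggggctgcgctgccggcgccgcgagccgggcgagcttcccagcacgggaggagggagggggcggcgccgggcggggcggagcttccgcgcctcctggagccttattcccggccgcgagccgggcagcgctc
EGFR: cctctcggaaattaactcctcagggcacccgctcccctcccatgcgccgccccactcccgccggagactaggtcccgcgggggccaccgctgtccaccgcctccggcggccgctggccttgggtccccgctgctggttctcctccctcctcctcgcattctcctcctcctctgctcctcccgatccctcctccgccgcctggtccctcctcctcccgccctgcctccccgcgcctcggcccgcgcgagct
The motifs, searched on both strands, were the cyclic AMP response element TGACGTCA, the AP-1 site TGANTCA, the EGR site GCGNGGGCG and the TATA box TATAAA. The AREG sequence held 1 cyclic AMP response element, starting 65 bases before the start site, and 1 TATA box at 29 bases. The EREG sequence held a TATA box at 32 bases and none of the other motifs, and the HBEGF and EGFR sequences shown held no match. Before the second RefSeq start of EGFR, not printed here (chr7:55109589-55109838, plus strand), there were 2 AP-1 sites and 2 TATA boxes. Among 35116 promoters of the same length, 1.65% held the cyclic AMP response element, 6.57% the AP-1 site, 8.41% the EGR site and 10.7% the TATA box. A match describes the letters only.

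Library totals ran from 14921371 to 35723762 counts. Levels are given in CPM (1 of 1000000 counts, with library sizes scaled by TMM). Before that scaling, 1 CPM equals 14.9 counts in the shallowest library, lone control replicate 1. After it, 3 counts there equal 0.186 CPM. TYMS, the targeted gene, was at 95.4 ± 5.27 CPM (SD, n = 3) in lone control and 93.4 ± 2.67 in co-cultured control, against 20.9 ± 0.547 in lone and 11.05 ± 0.360 in co-cultured knockout. CDKN2A and MTAP, neighbours that A549 is known to have lost on both chromosomes, were at 54.7 to 116 CPM and 43.8 to 79.5 CPM in the libraries labelled control. In the knockout libraries they were at 0 to 0.119 CPM and 0.302 to 0.647 CPM. The libraries labelled control thus go against what is known of the labelled line, and in every comparison of knockout with control made here, a difference of the guide and a difference between the cells cannot be told apart. No control library is compared where co-cultured knockout is set against lone knockout. The control libraries still entered the low-count filter, the scaling and the shared estimate of spread used there. Epithelial markers summed to between 8358 and 17778 CPM in all 12 libraries, while EPCAM was at 104 ± 13.6 CPM in lone control and 0.620 ± 0.264 in lone knockout. The alveolar markers summed to at most 2.37 CPM, with SFTPA1 at 0. Leukocyte markers summed to at most 6.07 CPM, endothelial markers to at most 2.60 and fibroblast markers to between 10.9 and 24.6. CD3E, a marker of T cells, was at 0, and the monocyte marker CD14 was at 0.866 ± 0.0613 CPM in lone and 3.25 ± 0.851 in co-cultured knockout. Libraries of 1 group also differed along the GC content of genes: the rank correlation of a library's deviations with GC was 0.526, 0.834 and -0.845 in the 3 co-cultured knockout libraries, a range from low to high that the other groups also showed.

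**Figure D1:**
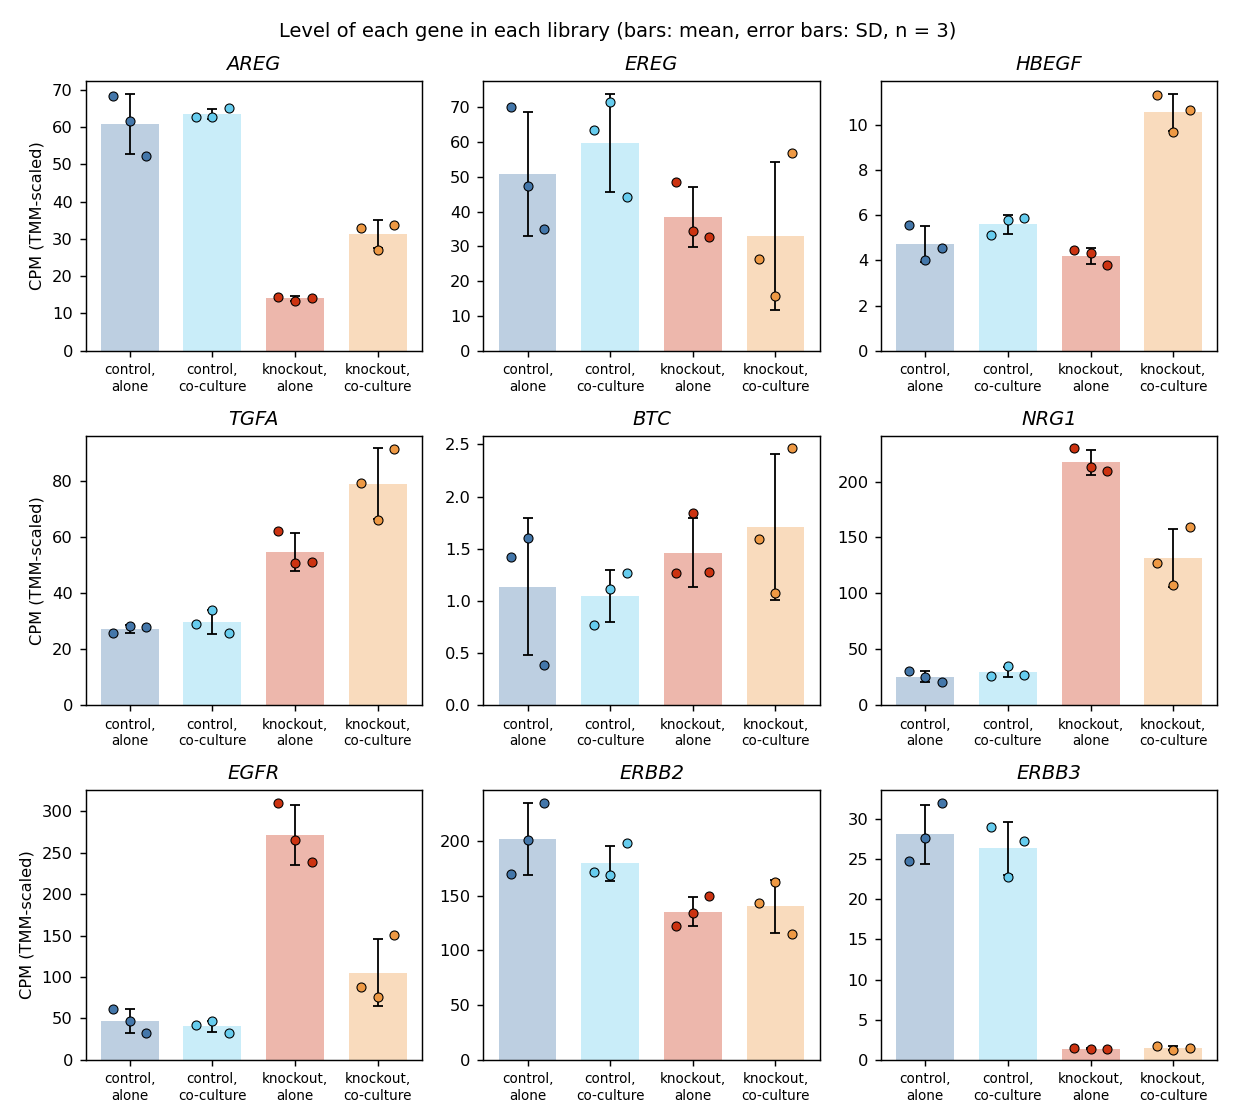
Level of 9 genes in CPM (TMM-scaled) in each of the 12 libraries. Points are libraries, bars are means and error bars are SD with n = 3. AREG is lowest in lone knockout, HBEGF is highest in co-cultured knockout, NRG1 and EGFR are highest in lone knockout, and ERBB3 is low in both knockout groups.

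Of the 10 genes, 9 passed the low-count filter and were tested with edgeR's quasi-likelihood test over all 16768 genes that passed, and a gene is said to have risen or fallen at a Benjamini-Hochberg adjusted p under 0.05. In cells grown alone, 6 of the 9 differed between knockout and control: NRG1, EGFR and TGFA rose, and AREG, ERBB2 and ERBB3 fell. Of all genes tested, 56.6% differed in this comparison, 28% higher and 28.6% lower in the knockout, so a share of 6 in 9 is near that of all genes. When the knockout cells were co-cultured, 5 of the 9 differed from lone knockout cells: AREG, HBEGF and TGFA rose, and NRG1 and EGFR fell, against 11.4% of all genes (5.97% higher, 5.4% lower). Between knockout and control in co-culture, 6 differed, with HBEGF, TGFA, NRG1 and EGFR higher and AREG and ERBB3 lower, against 49.4% of all genes (24.1% higher, 25.3% lower). Between co-cultured and lone control, edgeR called 0 of the 9 genes and 0% of all genes. At an unadjusted p under 0.05 there were 540 genes, of which 0 were members, and DESeq2 called 0 genes. These comparisons share groups: the lone knockout libraries enter the first and the second, so the pairs of values below are not independent of each other. The values of the 2 groups did not overlap for 6 of the 9 genes in knockout against control alone (65.2% of all genes), 5 in co-cultured against lone knockout (31.5%), 7 in knockout against control in co-culture (55.4%) and 0 in co-cultured against lone control (7.39%). The test of whether co-culture moved a gene differently in knockout than in control (the interaction) called 1 of the 9, AREG, against 1.8% of all genes (1.51% higher, 0.286% lower). Of all genes called in the interaction 253 were higher and 48 lower, against 787 and 637 with GC offsets, and 1201 and 2422 without co-cultured knockout replicate 3. With DESeq2, HBEGF, NRG1 and EGFR passed it too, with adjusted p-values of 0.0017, 0.017 and 0.047. Scaling by library size alone made 69.6% of the calls between co-cultured and lone knockout higher, against 52.5% with TMM.

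**Figure D2:**
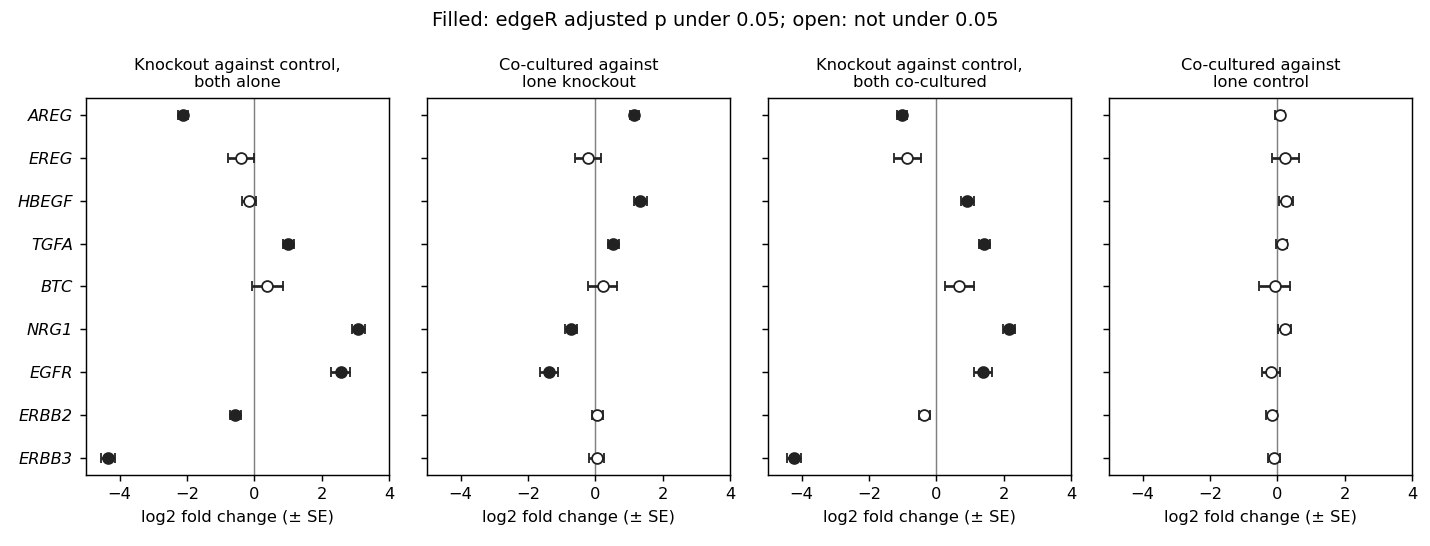
Log2 fold change of 9 genes in 4 comparisons, on an axis from -5 to 4, with error bars of 1 SE. Filled points have an edgeR adjusted p under 0.05. Co-cultured against lone control has no filled point, and ERBB3 lies farthest from 0 in both comparisons of knockout with control.

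AREG (amphiregulin, an EGFR ligand of modest affinity that is widely induced in epithelia) was the ligand that fell furthest in the knockout. The lone control libraries held 68.4, 61.6 and 52.3 CPM and the co-cultured control libraries 62.6, 62.7 and 65.1. The lone knockout libraries held 14.4, 13.4 and 14.2 CPM and the co-cultured knockout libraries 33.0, 27.1 and 33.8. All 3 co-cultured knockout libraries lay above all lone knockout libraries and below all 6 control libraries. AREG fell by 2.11 (log2, SE 0.14) in lone knockout against lone control, 4.33-fold lower, with an edgeR adjusted p of 7.7e-08. Co-cultured knockout was 2.23-fold above lone knockout (log2 1.16, SE 0.14, edgeR adjusted p = 0.0003), and it stayed 2.03-fold below co-cultured control (log2 -1.02, SE 0.14, adjusted p = 4.1e-05). These AREG calls held under every alternative run. In control cells the co-culture difference was log2 0.06 (SE 0.13, adjusted p = 1). The interaction was log2 1.09 (SE 0.19, edgeR adjusted p = 0.012); scaling by library size only gave an adjusted p of 0.097, and leaving out co-cultured knockout replicate 1 gave 0.052.

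ERBB3, EPCAM and CDKN2A, which were also low in the knockout, were still low in the co-cultured knockout, at 1.42 ± 0.259, 0.322 ± 0.185 and 0.0398 ± 0.0689 CPM (SD, n = 3), and TYMS was lower there than in lone knockout. The part that RNA of partner cells has in the AREG value was not tested. A549, the named partner, is known to have lost CDKN2A, so a low CDKN2A value cannot tell whether partner RNA is present. CD14 rose beside AREG in co-culture (log2 1.91), and its part was not tested either. CD14 is 1 of 4 leukocyte markers, of which 2 were at 0 in each group. Summed, the 4 stood at 0.797 to 0.931 CPM in lone knockout and 2.76 to 4.26 in co-cultured knockout. In lone control, which was not co-cultured, they stood at 3.70 to 6.07 CPM.

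EREG (epiregulin, a ligand of EGFR and ERBB4) lies next to AREG and passed edgeR's test in none of the comparisons, though some alternatives called it. The EREG level was 70.2, 47.2 and 34.9 CPM in lone control, 63.5, 71.6 and 44.1 in co-cultured control, 48.5, 34.5 and 32.6 in lone knockout, and 26.4, 15.6 and 56.8 in co-cultured knockout. The groups overlapped in every comparison, and the co-cultured knockout held both the lowest library and one above all lone knockout libraries. The log2 differences were -0.40 (SE 0.39, adjusted p = 0.40) for knockout against control alone, -0.23 (SE 0.39, 0.72) for co-cultured against lone knockout and -0.86 (SE 0.39, 0.085) for knockout against control in co-culture. DESeq2 called EREG lower in co-cultured knockout than in co-cultured control (log2 -0.87, adjusted p = 0.036), as did edgeR with no filter (-0.80, 0.00054). EREG has the lowest GC content of the 10 genes, 36.1% of its longest transcript. Co-cultured knockout replicate 3, the highest EREG value of its group, had deviations that ran against GC (-0.845), as did replicate 1 of each of the other groups (-0.760, -0.621 and -0.693). Without that library EREG was lower in co-cultured than in lone knockout (log2 -0.88, adjusted p = 0.035) and lower than in co-cultured control (log2 -1.51, adjusted p = 0.00078). With the GC trend of each library taken out, it was lower in knockout than in control alone (log2 -0.94, adjusted p = 4.5e-05) and in co-culture (-0.97, 2.9e-05).

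HBEGF (heparin-binding EGF-like growth factor, which binds heparan sulphate at the cell surface) was higher in the co-cultured knockout than in either group it was tested against. Lone control libraries held 5.58, 4.004 and 4.54 CPM, co-cultured control 5.11, 5.78 and 5.87, and lone knockout 4.44, 4.33 and 3.77. The co-cultured knockout libraries held 11.3, 9.66 and 10.6 CPM, above each of the 9 other libraries. HBEGF was 2.51-fold higher in co-cultured than in lone knockout (log2 1.33, SE 0.20, edgeR adjusted p = 0.0014) and 1.88-fold higher than in co-cultured control (log2 0.91, SE 0.20, adjusted p = 0.0017). Lone knockout did not pass the test against lone control (log2 -0.17, SE 0.20, adjusted p = 0.50). The interaction was log2 1.08 (SE 0.28, adjusted p = 0.080) and so did not pass. Besides DESeq2, it passed in edgeR with the GC trend taken out (log2 1.03, adjusted p = 0.021). It also passed without co-cultured knockout replicate 3 (log2 1.07, adjusted p = 0.023).

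TGFA (transforming growth factor alpha, a high-affinity EGFR ligand) rose in the knockout. In the lone control libraries it was at 25.6, 28.1 and 27.9 CPM, in co-cultured control at 29.03, 34.0 and 25.7, in lone knockout at 62.2, 50.5 and 50.9, and in co-cultured knockout at 79.1, 66.2 and 91.4. Both knockout groups lay above every control library. TGFA was 2.005-fold higher in lone knockout (log2 1.003, SE 0.16, adjusted p = 0.00015) and 2.67-fold higher in co-cultured knockout than in co-cultured control (log2 1.41, SE 0.16, adjusted p = 9.1e-06). Against lone knockout, co-cultured knockout was 1.45-fold higher (log2 0.53, SE 0.15, adjusted p = 0.044), a call that held under 7 of 15 alternatives, with adjusted p-values from 0.00023 to 0.15. It did not hold without lone knockout replicates 1, 2 or 3, or without co-cultured knockout replicates 1 or 3, each left out alone. Nor did it hold with the 2 knockout groups alone, without the control libraries (log2 0.52, edgeR adjusted p = 0.12). The TGFA interaction did not pass, but it did with the GC trend taken out (log2 0.73, edgeR adjusted p = 0.010).

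BTC (betacellulin) and EPGN (epigen) were the scarce ligands. BTC stood between 0.383 and 2.46 CPM over the 12 libraries and differed in no comparison, with adjusted p-values of 0.49, 0.76 and 0.21 for the 3 comparisons that involve the knockout. EPGN had 2 counts or fewer in every library, up to 0.0847 CPM, and did not pass the filter.

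NRG1 (neuregulin 1, the ligand of ERBB3 and ERBB4) rose furthest among the ligands. Lone control libraries held 30.9, 25.1 and 20.9 CPM and co-cultured control 26.5, 35.0 and 27.2. Lone knockout libraries held 229.6, 213 and 209 CPM and co-cultured knockout 127, 108 and 159. No library of 1 knockout group overlapped with the other, and both lay above all control libraries. NRG1 was 8.47-fold higher in lone knockout than in lone control (log2 3.08, SE 0.19, edgeR adjusted p = 4.9e-08) and 4.44-fold higher in co-cultured knockout than in co-cultured control (log2 2.15, SE 0.19, adjusted p = 1.0e-06). It fell by 0.72 (log2, SE 0.18, adjusted p = 0.024) in co-culture of the knockout, a call that held under 7 of 15 alternatives, with adjusted p-values from 0.0017 to 0.11. It did not hold without lone knockout replicates 1, 2 or 3, or without co-cultured knockout replicates 1 or 2, each left out alone. Nor did it hold with the 2 knockout groups alone, without the control libraries (log2 -0.73, edgeR adjusted p = 0.058). The interaction was log2 -0.93 (SE 0.25, adjusted p = 0.092). Besides DESeq2, it passed in edgeR without lone control replicate 1 (log2 -1.09, adjusted p = 0.0496) and without co-cultured knockout replicate 3 (-1.09, 0.0084).

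EGFR, the receptor of most of these ligands, also rose in the knockout and fell in co-culture. Lone control libraries held 61.0, 46.2 and 31.8 CPM and co-cultured control 42.0, 46.3 and 32.8. Lone knockout libraries held 310.3, 265 and 239 CPM and co-cultured knockout 87.7, 75.9 and 151. All 3 co-cultured knockout libraries lay between the control and lone knockout values. EGFR was 5.86-fold higher in lone knockout (log2 2.55, SE 0.28, edgeR adjusted p = 8.7e-06), and it fell by 1.37 (log2, SE 0.27, adjusted p = 0.0086) in co-cultured against lone knockout, 2.59-fold. It was 2.60-fold above co-cultured control (log2 1.38, SE 0.27, adjusted p = 0.0011). Without co-cultured knockout replicate 1 the fall had log2 -1.26 and an adjusted p of 0.058. The interaction was -1.17 (SE 0.38, adjusted p = 0.15). Besides DESeq2, it passed in edgeR with no filter (log2 -1.08, adjusted p = 0.0059) and without co-cultured knockout replicate 3 (-1.53, 0.0061). EGFR shares 186 exon bases with EGFR-AS1 on the other strand, and without the strand setting the reads of both cannot be told apart; EGFR-AS1 had 22 counts in all libraries, against 30255 for EGFR.

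ERBB2 (the partner receptor without a ligand) was lower in the lone knockout. Lone control libraries held 169.5, 200.4 and 235 CPM, co-cultured control 172, 168 and 198, lone knockout 123, 134 and 149.5, and co-cultured knockout 143, 162 and 115. It was 1.49-fold lower in lone knockout than in lone control (log2 -0.57, SE 0.16, adjusted p = 0.0094), but with the GC trend taken out the value was log2 -0.07 (adjusted p = 0.35). Between knockout and control in co-culture the values did not overlap, while the test did not pass (log2 -0.36, SE 0.16, adjusted p = 0.087). That difference did pass with the GC trend taken out (log2 -0.18, adjusted p = 0.022), with library size only (-0.33, 0.0071) and without co-cultured knockout replicate 2 (-0.51, 0.028). Co-cultured and lone knockout differed by log2 0.05 (SE 0.16, adjusted p = 0.86), and by -0.18 with the GC trend taken out (adjusted p = 0.048). ERBB2 has the highest GC content of the 10 genes (57.5% of its longest transcript). It shares 571 exon bases with MIEN1 and 194 with PGAP3, both on the other strand, whose reads in those bases cannot be told apart from its own. Over all libraries MIEN1 had 21494 counts and PGAP3 6385, against 42321 for ERBB2.

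ERBB3 (the NRG1 receptor with little kinase activity) was the gene of the 10 that fell furthest, while its ligand NRG1 was the one that rose furthest. Lone control libraries held 24.7, 27.6 and 32.0 CPM and co-cultured control 29.03, 22.7 and 27.2, against 1.44, 1.29 and 1.40 in lone knockout and 1.68, 1.16 and 1.42 in co-cultured knockout. The lowest control library held 22.7 CPM and the highest knockout library 1.68. ERBB3 was 20.3-fold lower in lone knockout (log2 -4.34, SE 0.21, edgeR adjusted p = 5.5e-09) and 18.6-fold lower in co-cultured knockout (log2 -4.22, SE 0.21, adjusted p = 7.0e-09). Co-culture of the knockout left it at log2 0.03 from lone knockout (SE 0.22, adjusted p = 0.98). ERBB3 shares 31 exon bases with AC034102.2, which had 0 counts.

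The order of the levels, which can be compared between genes only per length, changed with the knockout. CPM were divided by the kilobases of exon in GENCODE 29. In lone control AREG (36.9 ± 4.91 CPM per kb) was highest, above ERBB2 (19.5 ± 3.16), EREG (8.88 ± 3.13) and TGFA (5.49 ± 0.285), which did not overlap with their neighbours. EGFR (3.70 ± 1.17) and ERBB3 (3.11 ± 0.407) overlapped, as did NRG1 (2.26 ± 0.443) and HBEGF (1.56 ± 0.265), and BTC (0.404 ± 0.234) was lowest among the genes tested. The co-cultured control had the same first 4, from AREG at 38.5 ± 0.841 to TGFA at 5.96 ± 0.845. In lone knockout EGFR (21.7 ± 2.87) and NRG1 (19.2 ± 0.967) led and overlapped, then ERBB2 (13.1 ± 1.31) with TGFA (10.99 ± 1.34), and AREG (8.51 ± 0.335) with EREG (6.74 ± 1.52). In co-cultured knockout AREG (19.0 ± 2.21), TGFA (15.9 ± 2.54), ERBB2 (13.6 ± 2.32), NRG1 (11.6 ± 2.30), EGFR (8.38 ± 3.23), EREG (5.76 ± 3.73) and HBEGF (3.49 ± 0.273) each overlapped with the next, so most neighbours in that order do not differ beyond their spread. By the longest transcript in place of all exon bases, ERBB2 instead of AREG is first in that group. The order of lone knockout depends on the length used as well. By the longest transcript NRG1 (36.6 ± 1.85) is first there, followed by EGFR (27.7 ± 3.66) and ERBB2 (27.5 ± 2.74), which lie close together.

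**Figure D3:**
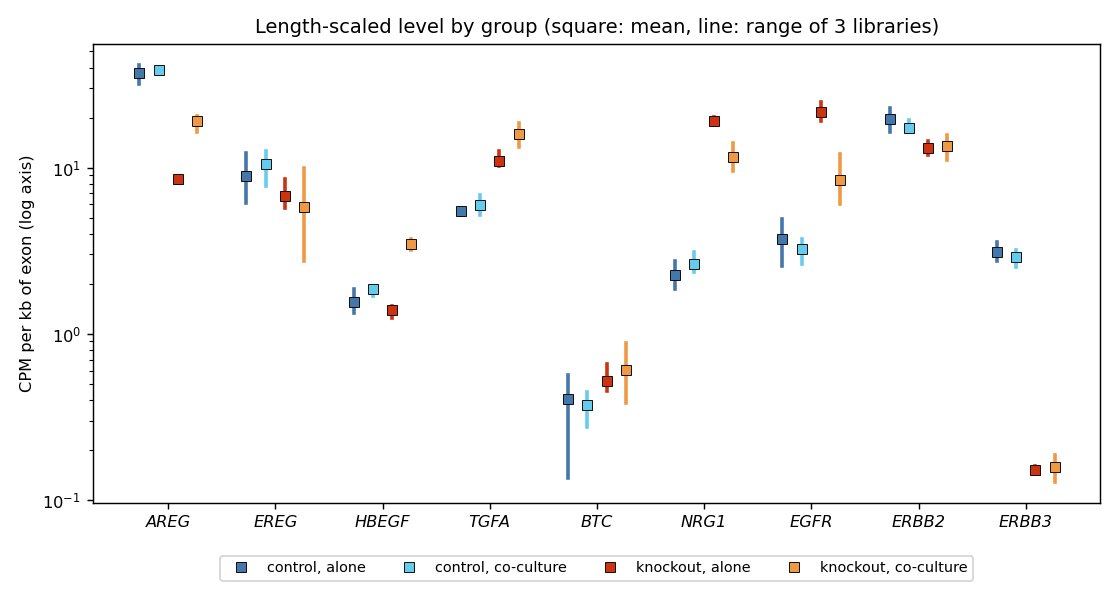
Level in CPM per kilobase of exon on a log axis, by gene and group. Squares are means and lines the range of 3 libraries. ERBB3 has a mean of 3.11 in lone control and 0.152 in lone knockout, while NRG1 and EGFR reach 19.2 and 21.7 in lone knockout.

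Of the other ligands and the fourth receptor, only NRG2 passed the low-count filter. EGF stood between 0 and 0.709 CPM, NRG4 between 0 and 0.550 and ERBB4, a receptor of the neuregulins, between 0 and 0.243, and NRG3 had 0 counts in all 12 libraries. NRG2 was at 6.34 ± 1.33 CPM in lone control and 5.37 ± 1.05 in lone knockout and passed edgeR's test in none of the comparisons. With the GC trend taken out, its value for knockout against control alone turned from log2 -0.24 to 0.57 and passed (adjusted p = 0.032).

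Of 7 genes of ligand shedding, 4 rose and 0 fell in lone knockout against control, with a median log2 of 0.75 where all genes had 0.09. Of all genes, 56.6% were called in this comparison, 28% higher and 28.6% lower. ADAM17, the main protease of these ligands, rose (log2 1.08) from 15.9 ± 5.21 to 33.4 ± 10.8 CPM, and RHBDF2, which carries ADAM17 to the surface, rose from 73.4 ± 5.57 to 124 ± 6.34 CPM (log2 0.75, edgeR adjusted p = 0.0011). TIMP3, an inhibitor of ADAM17, was at 0 to 0.0547 CPM in lone control and 3.45 ± 0.509 in lone knockout, at least 19.4-fold higher, against a floor of 3 counts in each library. In co-cultured against lone knockout edgeR called 0 of the 7, where it called 11.4% of all genes. There were 4 at an unadjusted p under 0.05 and 0 called by DESeq2. Without co-cultured knockout replicate 3, however, edgeR called 5. The 2 with the smallest p were FRMD8, which stabilises the RHBDF2 complex (log2 0.46, edgeR adjusted p = 0.10), and NRDC, an activator of ADAM17 (-0.72, adjusted p = 0.14).

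Among 12 genes that restrain the receptors, 3 rose and 3 fell in lone knockout, where 56.6% of all genes were called. Their median log2 was 0.15, against 0.09 for all genes. In its co-culture 1 rose and 2 fell (median -0.21, all genes 0.01), where 11.4% of all genes were called. Without co-cultured knockout replicate 3, 7 were called in that co-culture, 0 were without each of lone knockout replicates 1 and 2 and co-cultured knockout replicates 1 and 2, and 1 was without lone knockout replicate 3. CBLC, a ubiquitin ligase acting on activated receptors, was at 46.9 ± 12.4 CPM in lone control and at 0 in each lone knockout library, at least 307-fold lower. ERRFI1, an inhibitor of EGFR kinase activity, fell from 191 ± 36.5 to 38.7 ± 3.99 CPM (log2 -2.31, edgeR adjusted p = 1.5e-06). In co-culture of the knockout SOCS3 rose (log2 0.74, adjusted p = 0.02) and SH3KBP1, a partner of CBL, fell (log2 -0.66, adjusted p = 0.027).

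The 19 adaptors and RAS-MAPK core genes had 8 rises and 3 falls in lone knockout (median log2 0.46, with 56.6% of all genes called). In its co-culture they had 1 rise and 4 falls (median -0.51, all genes 0.01). Of all genes, 11.4% were called there (5.97% higher, 5.4% lower). In co-culture these 5 calls became 14 without co-cultured knockout replicate 3, 3 without lone knockout replicate 3 and 1 without each of the other 4 knockout libraries in turn. MAPK3 (ERK1) fell from 122 ± 29.4 to 40.5 ± 7.56 CPM (log2 -1.59) and MAP2K2 (MEK2) fell by 1.37 (log2). In co-culture MAP2K1 (MEK1) rose by log2 0.71 (adjusted p = 0.0025), and the exchange factor SOS1 had log2 -1.65 (adjusted p = 0.019). Of 13 tested PI3K, AKT and other effectors, 4 rose and 2 fell in lone knockout (median log2 0.57). STAT3, a transcription factor activated by the receptors, rose from 174 ± 11.1 to 313 ± 5.52 CPM (log2 0.84). Only SRC rose in co-culture against lone knockout (log2 0.75, adjusted p = 0.027), and PIK3CB had log2 -1.10 (adjusted p = 0.054). That count of 1 stood where 11.4% of all genes were called. It was 7 without co-cultured knockout replicate 3 and 0 without each of the other knockout libraries in turn. Between knockout and control in co-culture, 3 of the shedding genes rose and 0 fell, 2 restraint genes rose and 2 fell, 4 core genes rose and 5 fell, and 5 effectors rose and 3 fell, where 49.4% of all genes were called (24.1% higher, 25.3% lower).

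Of 16 genes that are commonly read as output of the MAPK pathway, 3 rose and 10 fell in lone knockout (median log2 -0.60), where 28% of all genes were higher and 28.6% lower. In its co-culture 5 rose and 0 fell (median 0.30), where 5.97% of all genes were higher and 5.4% lower. Those 5 calls became 9 without co-cultured knockout replicate 3. In co-culture the knockout differed from control by 4 rises and 9 falls (median -0.68, with 24.1% of all genes higher and 25.3% lower). EGR1, an early response transcription factor, was at 63.4 ± 6.62 CPM in lone control and 0.856 ± 0.215 in lone knockout (log2 -6.23, edgeR adjusted p = 7.5e-10), and it rose to 20.9 ± 3.22 in co-culture (log2 4.62, adjusted p = 2.1e-07). DUSP6, a phosphatase that switches off ERK, was at 70.2 ± 4.44, 5.32 ± 0.699 and 14.9 ± 2.53 CPM in those 3 groups (log2 -3.72 and 1.49). As with AREG, the co-cultured knockout values lay between those of lone knockout and control for both genes. The list was not chosen independently of these data, and its counts are a description.

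**Figure D4:**
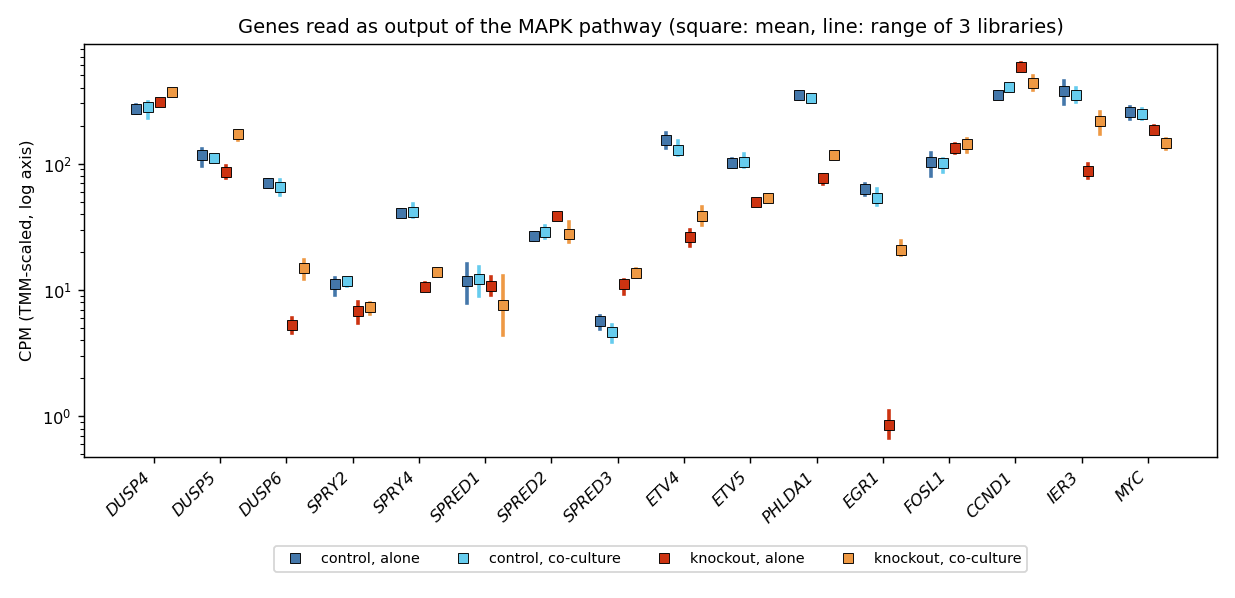
Level in CPM on a log axis of 16 genes read as output of the MAPK pathway, by group. Squares are means and lines the range of 3 libraries. EGR1 and DUSP6 are lowest in lone knockout and lie between it and control in co-cultured knockout.

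The genes whose levels ran most like those of 4 members over the 12 libraries are given as a description. The libraries share their groups, depth and GC trends. For AREG, TIFA (Pearson r = 0.991 of log2 CPM) and BCL6 (0.981) were nearest among 11093 genes compared. For EGFR these were CREG1 (0.994) and GLIS3 (0.994). For NRG1 they were NEDD9 (0.998) and CD24 (0.997), of which CD24 has near-identical copies and is uncertain. For ERBB3 they were LRRC61 (0.999) and SMARCA4 (0.999), whose means were 25.2 and 188 CPM in lone control and 0 and 13.5 in lone knockout.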

How the data were processed

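The authors deposited raw counts, as whole numbers, for 61541 Ensembl genes in 12 libraries. Per the labels' protocols, total RNA (miRNeasy) was made into libraries with the NEBNext Ultra RNA kit. The submitters' processing notes name FastQC, STAR 2.7.9a, featureCounts, R 4.2.1, DESeq2 1.36.0 and the builds GRCh38 and hg38, with no role or order. The annotation and the strand setting are not given in the sources used here. Symbols were found for 61369 genes, and positions, exon lengths and GC content come from GENCODE 29 (58366 genes matched).

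Counts were analysed as deposited in R 4.3.3 with edgeR 4.0.16. filterByExpr on the 4 groups left 16768 genes, library sizes were scaled by TMM, and all 12 libraries entered 1 model of 4 group means with the robust quasi-likelihood F-test. P-values were adjusted by Benjamini-Hochberg over all genes tested. The biological coefficient of variation was 22.1%, and library totals of 14921371 to 35723762 counts limit genes near 1 CPM. Where no library of a group had more than 3 counts, the gene was taken as at the floor, and its fold is a lower bound against 3 counts per library; such bounds cover counting error only. Replicates differed by 8.77 to 130 times counting noise per gene (chi-square), so each library was counted once. The scripts were tested on simulated data.

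All 10 members are named; EGF, NRG2, NRG3, NRG4 and ERBB4 are named where counted. From each other list, the 2 genes with the smallest p in knockout against control alone and the 2 in co-cultured against lone knockout are named, except for an item that is not reported here, and ADAM17 was added for its role after its values were seen. Genes of like pattern are the 2 with the highest correlation of log2 CPM (prior count 2) among genes with a mean of at least 5 CPM in a group. They are given for the ligand and the receptor with the smallest p in each of these 2 comparisons. Members and lists were chosen with earlier results of these data known. Alternatives were DESeq2 1.42.0 (test, and size factors alone), library size only, no filter, at least 5 CPM in 3 libraries, a replicate block, offsets that take out each library's GC trend, the 2 groups alone, and each library left out.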

Additional observations from a re-analysis of the deposited data

Results flagged for a closer look

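The difference between co-cultured and lone cells itself differed between knockout and control for the genes below and for the monocyte marker CD14 (2.75). They were called by edgeR's interaction test at an adjusted p under 0.05, as were 1.8% of all genes. Among the 9 genes of the growth factor family that were tested, only AREG was called, with a log2 difference of 1.09. Among the 16 genes read as MAPK output these were EGR1 (4.86), DUSP6 (1.59), IER3 (1.44) and DUSP5 (1.08). That list was not chosen independently of these data. Of the 7 tested genes of ligand shedding, the 12 of receptor restraint, the 19 of the RAS-MAPK core and the 13 effectors, 0 were called. IER3 stood at 377 ± 80.1 CPM in lone control, 87.1 ± 10.8 in lone knockout and 216 ± 43.1 in co-cultured knockout (SD, n = 3). DUSP5 stood at 118 ± 19.3, 85.8 ± 9.96 and 172 ± 14.4 CPM in the same groups, so its co-cultured knockout level was the highest of them. TYMS, the targeted gene, had an interaction of -0.89, being lower in co-cultured than in lone knockout. Its call was lost with no filter (log2 -0.78, edgeR adjusted p = 0.10). The libraries labelled control enter each of these values.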

How the results depend on the processing

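Of 18 member results called, 13 were called under every alternative, and of 715 alternative member values 638 kept direction and side of the threshold, 21 lost a call, 24 gained one and 32 changed sign, of which 0 had been called; the cause was not tested. Scaling by library size only moved the median log2 of all genes from 0.09 to 0.24 in knockout against control alone and from 0.01 to -0.11 in the interaction. Counts of calls in co-cultured against lone knockout and in the interaction moved by over 1.5 times with the processing, and genes well below 1 CPM, such as EPGN, are limited by depth.

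In co-cultured against lone knockout, 5 members were called; library size only, the replicate block and the 2 groups alone each gave 3, GC offsets gave 6, and leaving out a library gave 2 (without co-cultured knockout replicate 1) to 5. Genes called there numbered 1907, against 3347 with DESeq2, 3340 with no filter, 1080 with the replicate block, 4882 with GC offsets, 4185 with GC offsets and the replicate block, 664 with the 2 groups alone, and 536 (without co-cultured knockout replicate 1) to 5680 (without its replicate 3) with a library left out. In the interaction 1 member was called, against 0 by library size only, 4 with DESeq2, 2 with no filter, 3 with GC offsets, 3 with GC offsets and the replicate block, and 0 (without co-cultured knockout replicate 1) to 4 (without its replicate 3) with a library left out. Genes called in the interaction were 301, against 877 with DESeq2, 1342 with no filter, 179 with the replicate block, 1424 with GC offsets, 907 with GC offsets and the replicate block, and 119 (without co-cultured control replicate 2) to 3623 (without co-cultured knockout replicate 3) with a library left out. In co-cultured against lone control, no filter gave 2 genes.

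Samples with the same replicate number did not pair throughout: 8 of 18 such pairs had a correlation of deviations over 0.1, from -0.855 to 0.779. Among lone control, co-cultured control and lone knockout, same-number pairs of replicates 1 and 3 ran from 0.402 to 0.779. Co-cultured knockout replicate 3 instead had 0.859, 0.575 and 0.842 with replicate 1 of those groups, in that order. A block by replicate number does not follow this order. Its separate values are printed only in this section, but it is among the alternatives counted in the results above.

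Values that changed sign, with GC offsets and then with GC offsets and the replicate block, were in log2 AREG -0.035 and -0.036 (co-cultured against lone control), EREG 0.16 and 0.17, ERBB2 -0.18 (called, adjusted p = 0.048) and -0.18, ERBB3 -0.097 and -0.092 and NRG2 -0.030 and -0.026 (co-cultured against lone knockout), BTC -0.16 and -0.16 and NRG2 0.57 and 0.57 (both called, adjusted p = 0.032 and 0.046; knockout against control alone), and ERBB2 -0.11 and -0.11 (interaction). Library size only changed the sign of ERBB2 (-0.015) and ERBB3 (-0.022) in co-cultured against lone knockout, ERBB3 (-0.00108) in the interaction and TYMS (0.032) in co-cultured against lone control. With a library left out, log2 values ran in co-cultured against lone control from -0.038 to 0.16 for AREG, -0.51 to 0.26 for BTC, -0.41 to 0.049 for EGFR, -0.18 to 0.0053 for ERBB3 and -0.069 to 0.011 for TYMS. In co-cultured against lone knockout they ran from -0.88 to 0.11 for EREG, -0.15 to 0.47 for BTC, -0.080 to 0.18 for ERBB2 and -0.10 to 0.16 for ERBB3. For BTC they ran from -0.074 to 0.71 in knockout against control alone and -0.075 to 0.72 in the interaction, where ERBB3 ran from -0.0062 to 0.25.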
